A study of Mus musculus with 2 samples.

Results

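DNA replication and nucleotide supply is represented here by 52 genes that carry eukaryotic chromosome duplication from the marking of origins to the packaging of the new strands. The members were the rows of the count table whose gene symbol was in a fixed list, and all 52 were found among the 19294 genes of the table. They were ordered by step into licensing (9 genes), helicase and origin firing (16), polymerases and primase (9), single-strand binding (3), clamp with its loader and Okazaki fragment maturation (8), deoxynucleotide (dNTP) supply (5) and chromatin assembly (2). The data are mRNA-seq of mouse intestinal organoids (mIOs), which are crypt-derived epithelial cultures grown with EGF, Noggin and R-spondin. Both cultures carried the Lgr5-EGFP-IRES-creERT2 allele, which places EGFP and an inducible Cre at the locus of the stem cell gene Lgr5. At Day 4, 1 library came from a control culture and 1 from a culture treated for 4 days with dextran sulfate sodium (DSS), a sulfated polysaccharide that injures epithelium. The age and number of donor animals and the DSS concentration used for sequencing were not given in the sources used here.

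Replication is prepared in G1, when the origin recognition complex (ORC) together with Cdc6 and Cdt1 loads the MCM2-7 ring around DNA, a step called licensing. In S phase the kinase of Cdc7 and Dbf4, with cyclin-dependent kinases, turns the loaded ring into the active helicase by adding Cdc45 and GINS, after which polymerase alpha with primase starts each strand and polymerases epsilon and delta extend it. In the intestine this machinery is used mainly by stem cells and transit-amplifying cells of the crypt, while most villus cells no longer divide, and many of its genes are known targets of E2F transcription factors.

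Promoter sequence is shown for 7 members with large and small decreases across licensing, the helicase, the polymerases and the clamp, since the report turns on these differences. The RefSeq promoter table (build GRCm38.p6, first listed start of each gene) held 44 of the 52 members, and the lines give the 170 bases before the start, 5′ to 3′ on the gene's strand. Capitals mark 8-letter E2F-type matches (TTTCCCGC, TTTCGCGC, TTTGGCGC or TTTGCCGC on either strand), and overlapping matches run together. The lines are Mcm5 and Mcm6, the lowest and highest MCM2-7 subunits (chr8:75109339-75109508, plus strand, and chr1:128359706-128359875, minus strand), Orc1 and Orc3, ORC subunits far apart in their ratios (chr4:108579284-108579453, plus strand, and chr4:34614943-34615112, minus strand), the MCM loader Cdc6 (chr11:98907981-98908150, plus strand), the polymerase alpha catalytic subunit Pola1 (chrX:93632156-93632325, minus strand) and the clamp Pcna (chr2:132253181-132253350, minus strand).
Mcm5: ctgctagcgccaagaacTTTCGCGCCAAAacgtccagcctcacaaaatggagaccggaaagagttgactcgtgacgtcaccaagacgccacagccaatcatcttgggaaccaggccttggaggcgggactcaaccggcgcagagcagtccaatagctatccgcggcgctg
Mcm6: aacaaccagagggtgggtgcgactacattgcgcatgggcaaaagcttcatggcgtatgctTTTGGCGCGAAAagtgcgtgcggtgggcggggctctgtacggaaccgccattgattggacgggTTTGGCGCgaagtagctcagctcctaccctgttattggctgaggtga
Orc1: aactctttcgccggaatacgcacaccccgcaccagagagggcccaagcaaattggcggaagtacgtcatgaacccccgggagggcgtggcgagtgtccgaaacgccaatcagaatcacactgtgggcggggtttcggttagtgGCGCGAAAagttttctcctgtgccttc
Orc3: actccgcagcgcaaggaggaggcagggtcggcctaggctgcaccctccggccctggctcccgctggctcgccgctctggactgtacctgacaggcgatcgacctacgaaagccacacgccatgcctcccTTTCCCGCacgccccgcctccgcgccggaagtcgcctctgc
Cdc6: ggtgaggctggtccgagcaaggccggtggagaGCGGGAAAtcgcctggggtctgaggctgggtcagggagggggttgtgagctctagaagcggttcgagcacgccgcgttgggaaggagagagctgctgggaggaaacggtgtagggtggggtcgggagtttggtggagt
Pola1: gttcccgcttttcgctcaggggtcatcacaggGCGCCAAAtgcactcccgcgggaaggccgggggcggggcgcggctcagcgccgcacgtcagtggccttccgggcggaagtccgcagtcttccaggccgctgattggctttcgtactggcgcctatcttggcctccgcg
Pcna: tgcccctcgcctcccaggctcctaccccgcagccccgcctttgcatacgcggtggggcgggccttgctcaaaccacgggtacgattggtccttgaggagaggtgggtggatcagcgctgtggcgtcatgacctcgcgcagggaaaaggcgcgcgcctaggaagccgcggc
The printed stretch holds 2 matches in Mcm5, 3 in Mcm6, 1 each in Orc1, Orc3, Cdc6 and Pola1, and 0 in Pcna. The printed lines hold matches more often than members do, since 14 of 44 members (31.8%) had one from 250 bases before to 50 bases after the start. A match is a description of letters and not evidence that a factor binds there.

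The libraries held 65493032 (control) and 59746968 (DSS) read counts, and counts were compared after scaling with trimmed mean of M-values (TMM) factors. Every ratio below is the log2 of DSS over control scaled counts, so that -1 is 2-fold and -3 is 8-fold lower under DSS. Its bracketed range is an exact 95% interval for counting error alone. With 1 library per condition there is no spread between cultures, no difference could be tested, and no p-value is given. The labels name intestinal stem cells, and all 7 stem cell markers were listed in both libraries, with Lgr5 itself at 18849 counts in the control and 1048 under DSS. The smallest count of any listed gene was 1, so being listed already means counts in both libraries and is no check of the label. The lowest ratio among these markers was that of Olfm4, with 13109 counts in the control and 13 under DSS. The 7 stem cell markers summed to 1729 CPM (counts scaled to a common library size) in the control and 239.0 CPM under DSS, and 7 of 7 were lower under DSS. All 8 enterocyte markers were higher under DSS (2009 to 20295 CPM in sum), as were 7 of 7 goblet (863.0 to 11692 CPM) and 7 of 7 enteroendocrine markers (832.8 to 4369 CPM). Paneth markers summed to 863.8 and 228.9 CPM and tuft markers to 9.194 and 4.481 CPM, with 7 of 7 and 5 of 5 lower under DSS. The 6 general epithelial markers summed to 5441 and 8020 CPM, with 4 higher and 2 lower, a split that was 2 higher and 4 lower with total counts. Of the markers of other cells, 3 of 7 mesenchymal genes were listed at 0.5030 and 0.9328 CPM in sum and 4 of 6 immune genes at 14.10 and 24.33 CPM. The remaining genes of both lists were looked for and not listed. The part of these shifts in cell type markers in the replication values was not tested.

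All 52 members had fewer scaled counts in the DSS library than in the control, with a median log2 ratio of -2.51. Together they took 179761 counts, or 0.2745% of all counts (95% exact interval 0.2732 to 0.2757), in the control library and 31990 counts, or 0.0535% (0.0530 to 0.0541), in the DSS library. No member lay above 0, beside 48.0% of the 17235 genes that reached 10 counts in either library, whose median was -0.06. A log2 ratio of -2 or less, a 4-fold decrease, was reached by 34 of 52 members against 6.54% of all genes, and -3 or less, an 8-fold decrease, by 22 members against 2.44% of all genes. Members are well expressed, so the same shares were taken among the 10832 genes whose control counts matched or exceeded those of the lowest member, where they were 6.60% and 2.80%. In the order of all 17235 ratios, 40 members stood in the lowest 10%, 33 in the lowest 5% and 7 in the lowest 1%. The ratios describe RNA from whole cultures, in which fewer cells of a type and less RNA per cell cannot be told apart.

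**Figure D1:**
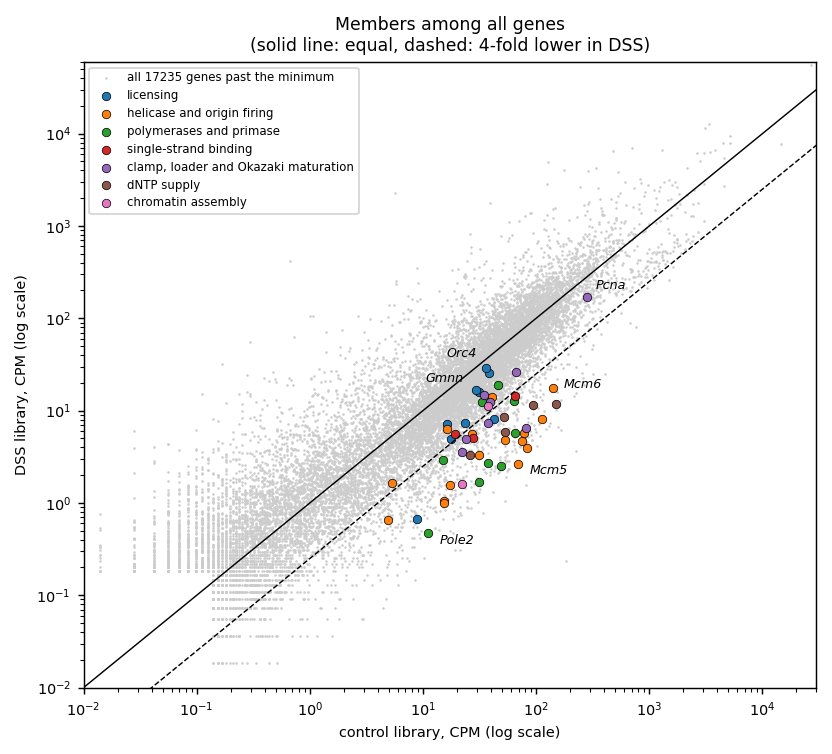
CPM of each gene in the control library (x axis, log scale) and the DSS library (y axis, log scale), with library sizes scaled by TMM. Grey dots are the 17235 genes that reached 10 counts in either library, coloured points are the 52 members by step, the solid line marks equal values and the dashed line a 4-fold decrease. All members lie below the solid line and 34 lie at or below the dashed line, while Pcna and Orc4 stay near the cloud of all genes.

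The size of the decrease was far from uniform. The member ratios ran from -4.71 for Mcm5, a helicase subunit, to -0.32 for Orc4, an ORC subunit. A total of 5 members were at -4 or less (Mcm3, Mcm5, Prim1, Pole and Pole2), 13 lay between -2 and -1, and 5 lay above -1 (Gmnn, Orc3, Orc4, Orc5 and Pcna). All 52 counting intervals lay wholly below 0. Only the intervals of Cdc6 and Gins3 spanned -2, so the counting intervals of the 34 members called at that line did not cross it, whereas 5 intervals spanned -3. The DSS counts ran from 26 for Pole2 to 9370 for Pcna, and 9 members had fewer than 100 counts there, which makes their ratios the least precise.

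**Figure D2:**
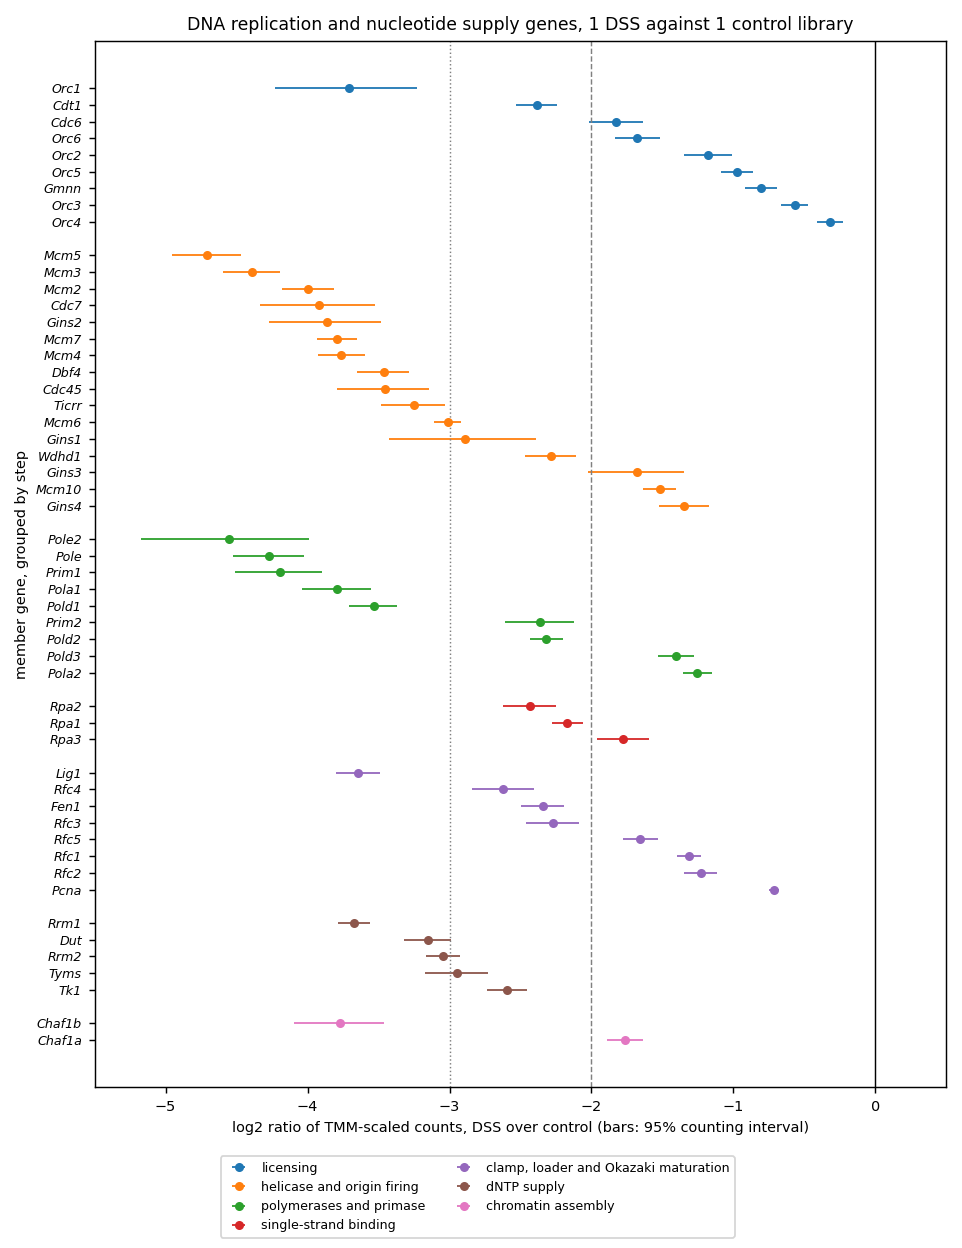
Log2 ratio of TMM-scaled counts, DSS over control (x axis), for each of the 52 members (y axis), coloured and grouped by step and ordered within it. Bars are 95% counting intervals from 1 library per condition, and lines mark 0, -2 and -3. Licensing genes spread from -3.71 to -0.32, whereas the 5 dNTP supply genes stay between -3.67 and -2.59.

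Licensing genes were the least decreased step, with a median of -1.18 and 2 of 9 at -2 or less. ORC, which marks origins by binding DNA, was split by its subunits. Orc1, the ATPase subunit whose protein is known to vary through the cell cycle, had 633 counts in the control and 37 under DSS, a ratio of -3.71 (-4.23 to -3.23). Orc4 had 2583 and 1581 counts, a ratio of -0.32 (-0.41 to -0.23), and was the least decreased of all members. Orc2 (1172 and 396 counts), Orc3 (2730 and 1406), Orc5 (2229 and 866) and Orc6 (1681 and 402) lay at -1.18, -0.57, -0.98 and -1.68. Orc2 to Orc6 together fell by 0.77 on the log2 scale in summed scaled counts. The order of Orc1 below the other 5 subunits held beyond their counting intervals.

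The MCM loaders were lower by intermediate amounts. Cdt1, which brings the MCM ring to ORC, had 3040 counts in the control and 445 under DSS, a ratio of -2.38 (-2.53 to -2.24). Cdc6, the ATPase that closes the loading complex, had 1253 and 270 counts, a ratio of -1.83 (-2.02 to -1.64). Gmnn encodes geminin, the protein that binds Cdt1 to block loading a further time in the same cycle, and its 2108 and 922 counts gave a ratio of -0.81 (-0.92 to -0.69). The ratio of Cdt1 to Gmnn counts was 1.44 in the control and 0.483 under DSS, a log2 change of -1.58 (-1.76 to -1.40). A ratio of counts between genes depends on their lengths, so only its change between libraries is read here and below. Per kb of transcript, Gmnn had the higher level in each library, at 30.6 CPM per kb beside 19.4 for Cdt1 in the control and 17.5 beside 3.72 under DSS.

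Helicase and origin firing genes had a median ratio of -3.46, and 13 of 16 were at -2 or less and 11 at -3 or less. All 6 subunits of MCM2-7, the motor ring of the helicase, were at -3 or less. Under upper quartile scaling (-2.923) and centring on the median of all genes (-2.955), Mcm6 stood just above that line. Mcm5 had 4984 counts in the control and 146 under DSS, a ratio of -4.71 (-4.95 to -4.47) or 26.1-fold lower, the lowest value among members. Mcm3 (5912 and 215 counts) and Mcm2 (5391 and 258) followed at -4.39 and -3.997 (-4.182 to -3.816 for Mcm2). Mcm4 (5589 and 315) and Mcm7 (8089 and 446) lay at -3.76 and -3.79, which their intervals do not separate. Mcm6, with 10039 and 950 counts, had the smallest decrease of the ring at -3.01 (-3.11 to -2.92) and the highest level per kb of the ring in each library. The 6 subunits stand in equal number in the ring, and their levels per kb of transcript ran from 20.6 to 38.6 CPM per kb in the control, a 1.87-fold range. Under DSS the same levels ran from 0.790 to 4.78 CPM per kb, a 6.06-fold range.

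Among the factors that turn the loaded ring into a helicase, Cdc45 had 1237 counts in the control and 86 under DSS, a ratio of -3.46 (-3.79 to -3.14). GINS is the 4-subunit partner of Cdc45, and its subunits differed. Gins2 had 1087 and 57 counts (-3.87, -4.28 to -3.48) and Gins1 had 349 and 36 (-2.89, -3.43 to -2.39), whereas Gins3 (382 and 91 counts) and Gins4 (1157 and 348) were at -1.68 and -1.35. The ratio of Gins2 to Gins4 counts was 0.939 in the control and 0.164 under DSS, a log2 change of -2.52 (-2.94 to -2.10). By annotation, 70.7% of the exonic bases of Gins2 lie antisense to Gse1, whose counts were 3898 and 3788.

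The firing kinase was low in both parts. Cdc7, the catalytic subunit, had 1089 counts in the control and 55 under DSS, a ratio of -3.92 (-4.34 to -3.53). Dbf4, its activating subunit, had 3782 and 262 counts, a ratio of -3.46 (-3.65 to -3.28). Ticrr, which brings cyclin-dependent kinase signals to Cdc45 loading, stood at -3.25 with 2246 and 180 counts. Mcm10, a factor that activates the assembled helicase, was less decreased at -1.52 (-1.64 to -1.40) with 2888 and 769 counts. Wdhd1, the scaffold that links helicase and polymerase alpha, lay between them at -2.29 with 1947 and 305 counts.

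The polymerases and primase had the lowest step median, -3.53, with 7 of 9 genes at -2 or less and 5 at -3 or less. In summed scaled counts, helicase and origin firing was lower, at -3.25 beside -2.54 for the polymerases and primase. Polymerase epsilon, which extends the leading strand, was represented by its catalytic subunit Pole and by Pole2. Pole had 3482 counts in the control and 138 under DSS (-4.27, -4.53 to -4.02), and Pole2 had 798 and 26 (-4.55, -5.18 to -3.99), the fewest DSS counts of any member. The ratio of Pole2 to Pole counts was 0.229 and 0.188, a log2 change of -0.28 whose interval (-0.90 to 0.33) includes 0. Their levels per kb were also alike, 6.54 and 6.79 CPM per kb in the control and 0.279 and 0.352 under DSS.

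Polymerase alpha with primase, the enzyme that lays down RNA-DNA primers, did not decrease evenly. Prim1, the catalytic primase subunit, had 2232 counts in the control and 93 under DSS, a ratio of -4.20 (-4.51 to -3.90). Pola1, the polymerase catalytic subunit, had 2704 and 149 counts, a ratio of -3.79 (-4.04 to -3.55). The partner subunits were less decreased, with Prim2 at -2.36 (1077 and 160 counts) and Pola2 at -1.26 (3262 and 1044 counts). The ratio of Pola1 to Pola2 counts was 0.829 in the control and 0.143 under DSS, and that of Prim1 to Prim2 was 2.07 and 0.581, log2 changes of -2.54 (-2.80 to -2.28) and -1.83 (-2.22 to -1.45). In both modules of the enzyme the catalytic subunit was thus lower relative to its partner under DSS.

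Polymerase delta, which extends the lagging strand, showed the same order. Pold1, the catalytic subunit, had 4701 counts in the control and 310 under DSS, a ratio of -3.53 (-3.70 to -3.37). Pold2 had 4551 and 697 counts (-2.32, -2.44 to -2.20), and Pold3, the subunit that contacts the sliding clamp, had 2356 and 680 (-1.40, -1.53 to -1.28). The ratio of Pold1 to Pold3 counts was 2.0 in the control and 0.456 under DSS.

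Single-strand binding was decreased by a median of -2.17, with 2 of 3 genes at -2 or less. The RPA complex coats unwound DNA, and it also serves repair. Rpa2 had 1966 counts in the control and 278 under DSS (-2.43, -2.62 to -2.25), and Rpa1 had 4643 and 788 (-2.17, -2.28 to -2.06). Rpa3, the smallest subunit, had 1372 and 306 counts, a ratio of -1.78 (-1.96 to -1.60). The range between the RPA subunits was small beside that within ORC, GINS or polymerase alpha with primase.

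The clamp, loader and Okazaki maturation genes had a median of -1.96, and 4 of 8 were at -2 or less. Pcna encodes the ring-shaped clamp that holds polymerases on DNA, and it had by far the most counts of any member in each library, 20088 in the control and 9370 under DSS. Its ratio was -0.71 (-0.75 to -0.68), a 1.64-fold decrease. Pcna made up 11.2% of all member counts in the control and 29.3% under DSS. Without it, the other 51 members summed to 159673 and 22620 counts, a log2 ratio of -2.43 (-2.45 to -2.41), against -2.10 (-2.12 to -2.08) with it. Of the 50-base stretches of the Pcna transcript, 31.8% also occur in the pseudogene Pcna-ps2, which was counted at 1116 and 543 with a ratio of -0.65 (-0.80 to -0.50), so the assignment of reads between these copies is uncertain.

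RFC, the 5-subunit loader that opens the clamp, was lower by a median of -1.66. Rfc4 (1570 and 195 counts) and Rfc3 (1713 and 271) lay at -2.62 and -2.27. Rfc5 (2778 and 674), Rfc1 (4721 and 1450) and Rfc2 (2483 and 809) lay at -1.66, -1.32 and -1.23, and the intervals of Rfc1 and Rfc2 overlap. Of the genes that join Okazaki fragments, Lig1, the replicative DNA ligase, had 5801 counts in the control and 355 under DSS, a ratio of -3.64 (-3.80 to -3.49). Fen1, the nuclease that removes primer flaps, had 2687 and 404 counts, a ratio of -2.35 (-2.50 to -2.19). Lig1 was thus the only gene of this step at -3 or less. By annotation, 86.6% of the exonic bases of Fen1 lie antisense to Gm10143, which was not listed under that symbol.

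All 5 dNTP supply genes were at -2 or less, in a narrow range around a median of -3.05. Ribonucleotide reductase, which makes deoxynucleotides from ribonucleotides, is formed by a large subunit, Rrm1, and a small subunit, Rrm2 or Rrm2b. Rrm1 had 10794 counts in the control and 647 under DSS, a ratio of -3.67 (-3.79 to -3.56). Rrm2, the small subunit used in S phase, had 6764 and 626 counts, a ratio of -3.05 (-3.17 to -2.93). Rrm2b, the small subunit known as a p53 target that works outside S phase and is no member of the list, had 618 and 536 counts, a ratio of 0.18 (0.01 to 0.35) that turned to -0.07 when libraries were scaled by total counts. The ratio of Rrm2b to Rrm2 counts was 0.0914 in the control and 0.856 under DSS, a log2 change of 3.23 (3.02 to 3.43), so the balance of the small subunits moved towards Rrm2b, though Rrm2 kept the higher level. Per kb, the level of Rrm2b was 1.89 CPM per kb in the control and 2.15 under DSS, beside 43.1 and 5.22 for Rrm2.

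The thymidylate enzymes of the step were lower by similar amounts. Dut, the dUTPase that keeps uracil out of DNA, had 3760 counts in the control and 323 under DSS, a ratio of -3.15 (-3.32 to -2.99). Tyms, which methylates dUMP to dTMP, had 1848 and 183 counts (-2.95, -3.18 to -2.73). Tk1, the thymidine kinase of S phase, had 3731 and 472 counts (-2.59, -2.74 to -2.46). The intervals of Dut and Tyms overlap, while that of Tk1 touches neither that of Dut nor those of the reductase subunits.

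Chromatin assembly was represented by CAF-1, which places new histones behind the fork. Chaf1b had 1572 counts in the control and 88 under DSS, a ratio of -3.77 (-4.10 to -3.46). Chaf1a had 2710 and 610 counts, a ratio of -1.76 (-1.89 to -1.64). The ratio of Chaf1b to Chaf1a counts was 0.580 and 0.144. By annotation, 48.6% of the exonic bases of Chaf1a lie antisense to Ubxn6, which had 1118 and 2080 counts (1.28, 1.18 to 1.39). The library kit marks strand, but whether the counting used it was not given in the sources used here, so reads of Chaf1a, Gins2 and Fen1 cannot be told apart from reads of their antisense partners with certainty. Smaller antisense overlaps were annotated for other members, among them Orc2 (24.0% of exonic bases), Rfc2 (19.1%), Rfc5 (17.8%) and Rfc4 (13.4%). The antisense partner of Rfc4, Eif4a2, had 35927 and 25131 counts. Of the 50-base stretches of Mcm7, 26.0% also occur in Gm5487, which had 89 and 4 counts. Pole2 overlaps Gm49384 on the same strand over 14.4% of its exonic bases.

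Levels of different members can be compared only per transcript length. The length used was the median of a gene's annotated transcripts, and the forms expressed in these cultures were not measured. A level per kb, and a fold between subunits, is thus off where a shorter or longer form is expressed. In the control, the order began with Pcna at 184.9 CPM per kb, followed by Rrm2 (43.1), Pold2 (38.6), Mcm6 (38.6), Mcm7 (38.2), Rrm1 (37.7) and Tk1 (36.2). It ended with Gins2 (3.89), Orc1 (2.93) and Gins3 (2.12). Under DSS, Pcna again stood highest at 112.9 CPM per kb, and Gmnn came next at 17.5, up from place 9 in the control. Orc3 (11.3) and Orc4 (11.1) followed, from places 25 and 31. At the low end were Pole (0.352), Cdc7 (0.345), Pole2 (0.279), Gins2 (0.267) and Orc1 (0.225). The licensing genes other than Orc1 and Cdt1 thus moved up in the order and all 6 MCM2-7 subunits moved down, with Mcm5 at place 16 in the control and 43 under DSS.

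**Figure D3:**
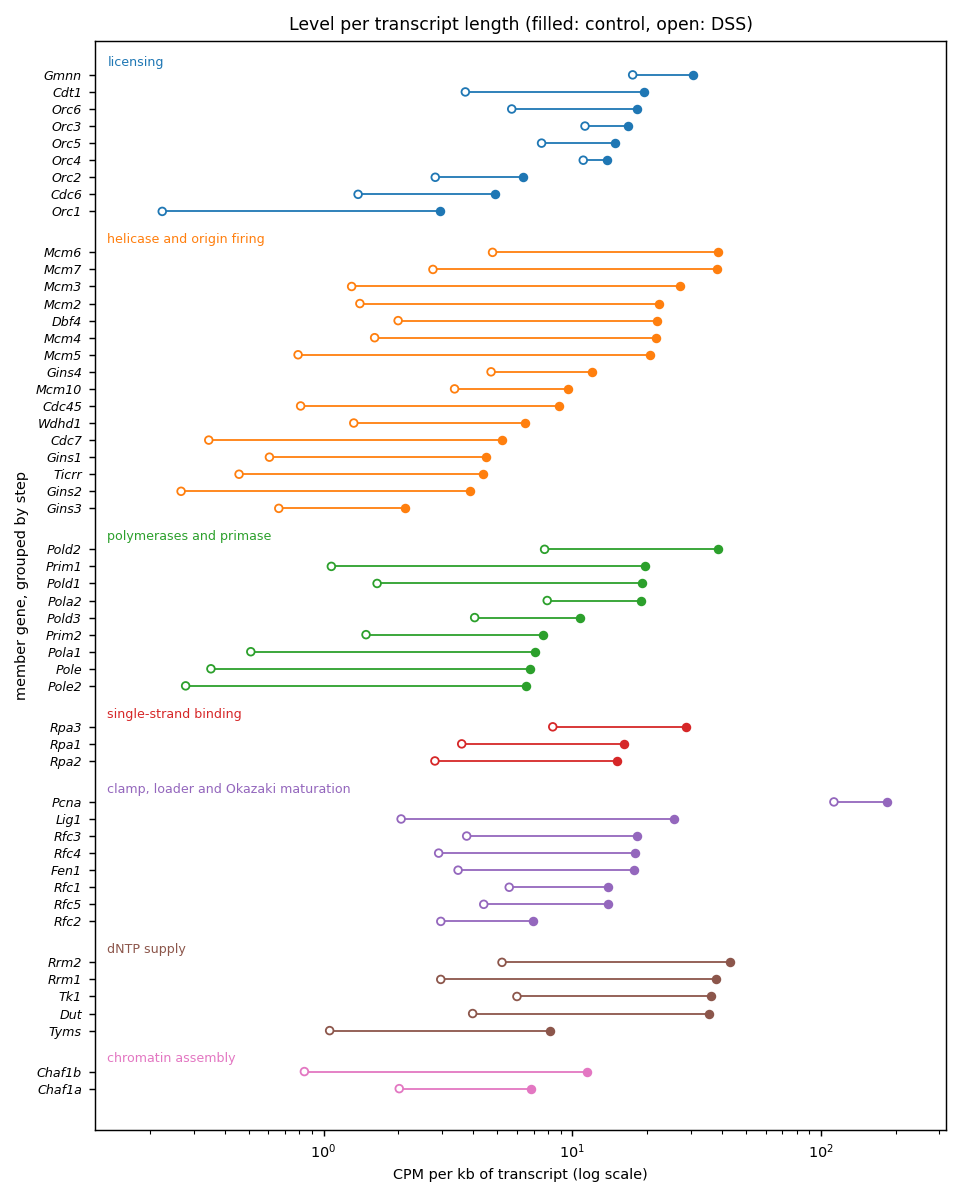
Level of each member per transcript length (x axis, CPM per kb, log scale) in the control (filled) and DSS (open) library, grouped by step (y axis), 1 library per condition. The distance between the points of a row is the decrease, which is short for Gmnn, Orc3, Orc4 and Pcna and long for Mcm5, Pole2 and Orc1.

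The spread of subunit levels per kb was wider under DSS in most complexes. The highest over the lowest subunit of ORC was 6.22-fold in the control and 50.2-fold under DSS, that of polymerase alpha with primase 2.79-fold and 15.6-fold, and that of GINS 5.66-fold and 17.7-fold. The ORC values rest on Orc1, its lowest subunit in each library, with 37 counts under DSS. The exceptions were RFC, at 2.62-fold and 1.92-fold, and the loaders Cdc6 and Cdt1, at 3.98-fold and 2.70-fold. The RFC subunits at the ends changed, from Rfc2 (6.946) and Rfc3 (18.17 CPM per kb) in the control to Rfc4 (2.904) and Rfc1 (5.582) under DSS. The ratio of Rfc4 to Rfc1 counts had a log2 change of -1.306 (-1.537 to -1.075), so the narrower RFC range does not mean even decreases. The polymerase epsilon members Pole and Pole2 were close to even in both libraries, at 1.04-fold and 1.26-fold. This did not hold for the other subunits of that enzyme, Pole3 and Pole4, which are not members. Pole3 was at 10.03 CPM per kb in the control and 9.262 under DSS, and Pole4 at 16.07 and 10.15. Their log2 ratios were -0.12 and -0.66. These folds compare levels within 1 library each and do not depend on the scaling between libraries.

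Genes around the replication fork that are not members were counted in the same way, from lists written for comparison. The shares over all 17235 genes to set beside these lists are 48.0% above 0 and 6.54% at -2 or less. Of 24 other fork factors, 22 were lower under DSS and 13 were at -2 or less, with a median of -2.20. The lowest were Timeless (-4.76) and Clspn (-4.35), which link the fork to checkpoint signalling, and Pclaf (-4.17), a PCNA-associated factor. Pold4, the small accessory subunit of polymerase delta, was at 0.94 (0.87 to 1.01) with 2716 and 3985 counts, and Donson, a helicase assembly factor, was at 0.05 (-0.11 to 0.20), or -0.21 with total counts. Among the polymerase delta subunits the ratios thus ran from -3.53 for Pold1 to 0.94 for Pold4.

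Of 17 other dNTP and thymidylate enzymes, 13 were lower under DSS and 4 were at -2 or less, with a median of -1.30. The lowest were Dctd (-4.91), the deaminase that feeds dUMP to Tyms, Shmt1 (-3.50), a folate enzyme, and Dtymk (-2.62), which phosphorylates dTMP. Cmpk1, a pyrimidine monophosphate kinase, was at 0.93 and Samhd1, an enzyme that degrades dNTPs, at 0.56 (0.48 to 0.63) with 2834 and 3183 counts. Dctd and Dtymk, which act just before and after Tyms, thus lay below or within the range of the 5 dNTP supply members.

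Of 17 enzymes that build purine and pyrimidine rings, 16 were lower and 9 were at -2 or less, with a median of -2.10. Paics (-3.19), Ctps1 (-3.09) and Atic (-2.96) were lowest, and Adss2 (0.47) and Prps1 (-0.11) highest. A list of histone chaperones and other chromatin factors that work with replication had a median of -2.03, with 11 of 11 lower and 6 at -2 or less. Its lowest genes were Uhrf1 (-4.18), which reads hemimethylated DNA and is no chaperone, and the chaperones Asf1b (-4.02) and Nap1l1 (-2.95), and Asf1a (-0.82) and Tonsl (-0.49) were highest. The chaperones that deposit histones outside replication had a median of -0.09, with 0 of 6 at -2 or less, near the 6.54% of all genes. In that list Hira (-0.79), Atrx (-0.24) and Daxx (-0.14) were lowest, and Ubn2 (0.55) and Cabin1 (0.42) were highest. The paralogs Asf1a and Asf1b, which carry the same histones, differed from -0.82 (-1.0 to -0.64) to -4.02 (-4.36 to -3.69).

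**Figure D4:**
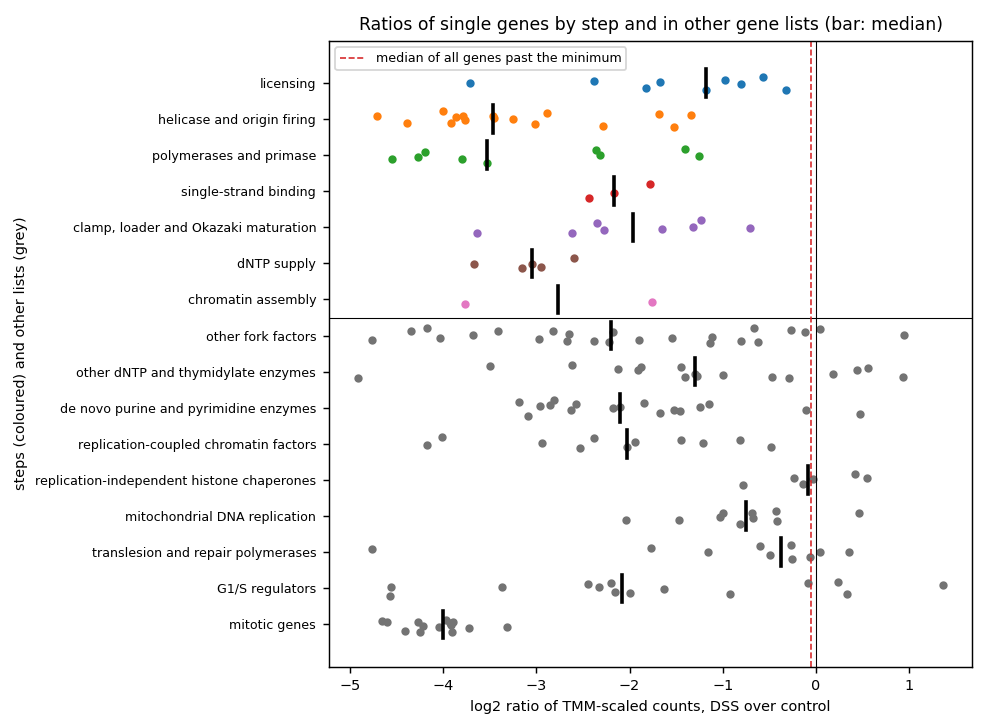
Log2 ratio of TMM-scaled counts, DSS over control (x axis), of single genes in the 7 steps of the 52 members (coloured) and in 9 comparison lists (grey), with a black bar at each median and a red dashed line at the median of all 17235 genes. Vertical offsets separate points and carry no value. The mitotic list lies lowest (median -4.01), and the replication-independent chaperones lie around the median of all genes.

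Across the 44 members with a promoter entry, E2F-type letters were looked for from 250 bases before to 50 bases after the start. The 8-letter forms were found in 14 of 44 members (31.8%) and in 478 of 12293 promoters of genes that reached 10 counts (3.89%). A shorter 7-letter form (TTCCCGC, with TTCGCGC as a variant and TTGGCGC as another variant, all overlapping the longer forms) was found in 24 members (54.5%) and in 13.7% of those promoters. CCAAT letters were found in 24 members (54.5%) against 38.8%, and the CHR-type letters TTTGAA and its variant TTCGAA, known from promoters of mitotic genes, in 8 members (18.2%) against 14.7%, all on either strand. The GC content of member promoters had a median of 62.3% beside 60.0% over those promoters. Members without an entry were Gins1, Gins2, Gins4, Gmnn, Mcm4, Pole, Prim2 and Rfc2, and 7 members had more than 1 listed start.

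The 14 members with 8-letter forms were Cdc6, Cdt1, Gins3, Mcm3, Mcm5, Mcm6, Mcm7, Orc1, Orc3, Pola1, Pold1, Pold3, Pole2 and Rfc3. Their median log2 ratio was -3.27, with a range from -4.71 for Mcm5 to -0.57 for Orc3, and that of the 30 other members with an entry was -2.39, with a range from -4.20 to -0.32. The ranges overlap widely. Orc3 and Orc1 each hold 1 match in the printed stretch, with ratios of -0.57 and -3.71. Whether the letters go with the size of the decrease was not tested.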

How the data were processed

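mRNA-seq libraries from 1 control and 1 DSS-treated mIO culture were made with the TruSeq Stranded mRNA kit. The values deposited by the authors are whole read counts for each gene and had not been normalized. The submitters' processing notes name HISAT2 and StringTie, without versions or roles; the genome build and the use of strand in counting were not given in the sources used here. The per-sample files carry FPKM in their names but repeat the counts of the joint table (2 of 2 identical), so no FPKM values were used. No listed gene has fewer than 1 count in either library, so no floor for a count of 0 was needed. The columns left unused numbered 0.

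The libraries held 65493032 (control) and 59746968 (DSS) counts. TMM factors from edgeR 4.0.16 (R 4.3.3) scaled the counts to CPM, that is, to a common library size. The log2 ratio of scaled counts was given with a Clopper-Pearson 95% interval (exact) for counting error alone. This interval treats each read as an independent draw. Reads without molecular identifiers are not independent molecules, so the interval may be too narrow. Intervals of a change in a ratio of 2 genes are Woolf intervals from their 4 counts. The background was the 17235 genes that reached 10 counts in either library. Each condition has 1 library, so differences were not tested. Lengths per kb, shared 50-base stretches and exon overlaps were taken from GENCODE vM21 transcripts (GRCm38) of the listed RefSeq accessions, which gave a length for 14810 genes and all 52 members. Promoters and their coordinates were taken from RefSeq (GRCm38.p6) and not from the authors' files.

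The members, the comparison lists and the marker lists were chosen with earlier results of these data known. All members are described by step. Of each comparison list, the 3 lowest and 2 highest ratios among genes that reached 50 counts in either library are named. Rrm2b is also named beside Rrm2, and Pole3 and Pole4 beside Pole and Pole2. The computation was run on simulated counts drawn without variation between cultures. This checks the arithmetic only and not how far 1 library stands for its condition. The alternatives replaced TMM by total counts, by upper quartile factors, by size factors of DESeq2 1.42.0 or by centring on the median of all genes, added a prior count of 2, thinned the deeper library, or set the count minimum to 100 or none. Other steps used Python 3.11.15, numpy 2.4.6, scipy 1.17.1, pandas 2.3.3 and matplotlib 3.10.9.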

Additional observations from a re-analysis of the deposited data

How the results depend on the processing

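All 52 members stayed below 0 under the main scaling and each of the 8 alternatives, and no median over members, steps or lists reversed. With total counts the named genes Rrm2b (-0.073), Donson (-0.21) and Polm (-0.22), which lay just above 0, changed sign. The number of members at -2 or less was 37 with total counts and 34 under every other setting. The number at -3 or less was 24 with total counts, 20 with upper quartile factors and with centring, and 22 otherwise. Mcm6 (-2.923 and -2.955) and Rrm2 (-2.955 and -2.988) lay just above -3 with upper quartile factors and with centring. Scaling by total counts moved the median of all genes by -0.26 and most values with it. It gave medians of -2.77 for the members, -1.43 for licensing, -3.72 for helicase and origin firing and -3.79 for polymerases and primase. The medians were -2.43 for single-strand binding, -2.22 for the clamp step, -3.30 for dNTP supply and -3.02 for chromatin assembly. Scaling by total counts thus moved each median by the shift of all genes, and no counting interval is given for a median. Among the comparison lists it gave -2.46 for other fork factors, -1.55 for other dNTP and thymidylate enzymes, -2.36 for purine and pyrimidine enzymes, -2.29 for replication-coupled chromatin factors and -0.35 for replication-independent chaperones, -1.01 for mitochondrial DNA replication, -0.63 for translesion and repair polymerases and -4.26 for mitotic genes. Upper quartile factors gave -1.94 and -0.000 for the replication-coupled factors and the replication-independent chaperones. Single members moved beyond their own interval in 42 cases under total counts, 2 under upper quartile factors, 1 under centring and 0 under the other alternatives. No paired analysis was possible because each condition has 1 library, and for the same reason no library could be left out. Depth limits the 9 members with fewer than 100 DSS counts, whose intervals are up to 1.19 wide on the log2 scale against 0.071 for Pcna.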

Other observations

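Neighbouring DNA-synthesis programmes and the cell cycle lists were counted beside the replication genes. Over all 17235 genes, 48.0% lay above 0 and 6.54% were at -2 or less. Of 10 genes of mitochondrial DNA replication, 9 were lower under DSS and 1 was at -2 or less, with a median log2 ratio of -0.76. The lowest were Mgme1 (-2.04), a mitochondrial exonuclease, Top1mt (-1.47), a mitochondrial topoisomerase, and Tfam (-1.03), which packages mitochondrial DNA. The highest were Polg2 (0.46), the accessory subunit of the mitochondrial polymerase, and Primpol (-0.42), a primase that also acts in the nucleus. Of 10 translesion and repair polymerase genes, 8 were lower and 1 was at -2 or less, with a median of -0.38. In this list and the mitochondrial list, 1 gene of 10 at -2 or less was near the share of all genes. Polq, the polymerase of an end-joining pathway, had 992 counts in the control and 28 under DSS (-4.76, -5.36 to -4.22), far from the next lowest, Poli (-1.77) and Polh (-1.16), and from Rev3l (0.35) and Polm (0.04, or -0.22 with total counts) at the high end.

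Of 14 regulators of the G1/S transition, 11 were lower under DSS and 7 were at -2 or less, with a median of -2.08. E2f7 (905 and 29 counts, -4.58) and E2f8 (3394 and 251, -3.37), which repress E2F targets, and Ccna2 (11253 and 364, -4.56), the cyclin of S phase, were lowest. Rb1, which encodes the retinoblastoma protein that holds E2F inactive, was highest with 4908 and 9642 counts, a ratio of 1.36 (1.31 to 1.41), and Cdc25a, a phosphatase that activates cyclin-dependent kinases, was at 0.33. All 14 mitotic genes were at -3 or less, with a median of -4.01, led by Aurkb (-4.65), Cdc20 (-4.61) and Bub1 (-4.41), while Cdk1 (-3.31) and Cenpe (-3.72) were highest. The mitotic range, -4.65 to -3.31, lay inside the wider range of the replication members, -4.71 to -0.32. The comparison lists were written with earlier results of these data known, and no difference between lists was tested.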
